A study of Mus musculus with 18 samples.

Results

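The genes described here encode the receptor chains for the cytokines that signal through the common gamma chain, namely IL-2, IL-4, IL-7, IL-9, IL-15 and IL-21. The members were chosen by symbol as Il2rg, Il2rb, Il2ra, Il15ra, Il7r, Il4ra, Il21r and Il9r, which are 8 of the 23337 genes in the count table. All 8 had at least 1 count in some library, as did 15582 genes in all. Of these, 11118 genes had enough counts to be tested, 7 of the 8 members among them. Il9r was the member left out.

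RNA-seq was done on invariant NKT (iNKT) cells, T lymphocytes whose receptor (TCR) binds lipids held by CD1d, sorted from thymi of WT and of SKG mice, both labelled BALB/c. The SKG allele is a point mutation of Zap70, the kinase that relays TCR signals, and weakens its signalling. The mice were offspring of a cross of SKG with BALB/cJ, from which WT and SKG animals were bred separately, so every cell of an SKG mouse carried the mutation, thymic T cell precursors included. Subsets were sorted by CD1d tetramer and surface proteins, NKT1 as ICOS low and CD49a+, NKT2 as CD49a-, Sdc-1-, ICOS high, CD4 high and TCR beta high, and NKT17 as CD49a-, ICOS high and Sdc-1+. This gave 6 groups of 3 libraries, 18 in all. The labels give no age for these mice and do not say whether animals were pooled, and p-values measure the spread between these libraries.

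The common gamma chain, encoded by Il2rg, carries no cytokine specificity by itself. It pairs with a chain that binds one cytokine, and the complex signals through the kinases JAK1 and JAK3 to STAT factors, mainly STAT5 for IL-2, IL-7, IL-9 and IL-15, STAT6 for IL-4 and STAT3 for IL-21. IL-2 and IL-15 share a further chain, encoded by Il2rb, and each adds its own alpha chain. In the thymus IL-7 sustains T cell precursors, and IL-15 is the cytokine on which NKT1 cells are known to depend.

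Library totals ranged from 4391029 to 8895917 counts. Levels are given as CPM, which are counts per 1000000 of a TMM-scaled library size, and means carry the SD over 3 libraries (n = 3). The call of a difference required an adjusted p below 0.1 in the quasi-likelihood test of edgeR, with the Benjamini-Hochberg method run across every tested gene, together with a change of 1.5-fold or more. Each subset carried its own marker genes, with the summed NKT1 markers at 1986 to 2474 CPM in NKT1 libraries and 29.5 to 184 CPM in the others. The summed NKT17 markers were at 2824 to 4261 CPM in NKT17 libraries and 1.21 to 14.5 CPM in the others. The NKT2 markers did not part NKT2 from NKT17 in this way, at 1349 to 2742 CPM in NKT2 and 1381 to 2503 CPM in NKT17 libraries.

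Set against each other per kilobase of exon (RPKM), the shared chain was the most abundant of the family in every group and Il9r the least. Il2rg was at 1086 to 1653 RPKM as group means. Il7r followed at 158 to 583 RPKM, except in NKT1 cells, where Il2rb stood second at 961 RPKM in WT and 762 RPKM in SKG. The chains that bind IL-2, IL-15, IL-4 and IL-21 alone were lower, since no group mean of Il2ra, Il15ra or Il4ra passed 29.3 RPKM and Il21r reached 104 RPKM in SKG NKT1 cells. Il15ra varied least among these, from 2.43 to 5.29 RPKM.

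**Figure D1:**
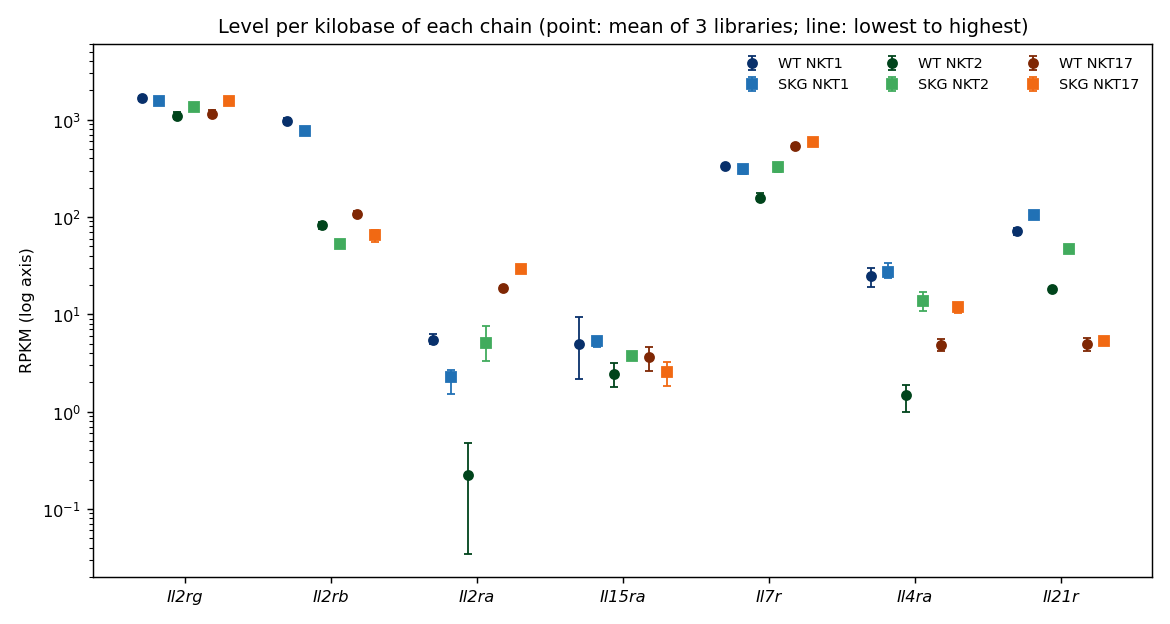
Mean level of 7 receptor chains in the 6 groups, as RPKM on a log axis, with lines from the lowest to the highest of 3 libraries, circles for WT and squares for SKG. Il2rg lies at 1086 RPKM or more in every group, and Il2ra spans the widest range, from 0.224 RPKM in WT NKT2 to 29.3 RPKM in SKG NKT17.

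Il2rg (chromosome X, 98459717 to 98463594, minus strand, build NCBIM37), the shared chain, was high everywhere. It was at 3686, 4194 and 3955 CPM in the WT NKT1 libraries, 2456, 2866 and 2451 CPM in WT NKT2 and 2573, 3013 and 2627 CPM in WT NKT17. The SKG libraries held 3945, 3778 and 3525 CPM in NKT1, 3113, 3328 and 3198 CPM in NKT2 and 3572, 3933 and 3616 CPM in NKT17. WT NKT2 and WT NKT17 were the lowest pair and overlapped each other, and the top 3 groups, WT NKT1, SKG NKT1 and SKG NKT17, overlapped in turn. Between WT NKT1 and WT NKT2 the log2 fold change was 0.61 (SE 0.09, adjusted p 2.10e-05), just past the fold minimum, and it fell to 0.50 with upper-quartile scaling, where it was not called. The difference of NKT1 from NKT17 in WT was 0.53 (SE 0.09, adjusted p 0.000108) and smaller than 1.5-fold. SKG libraries lay above WT libraries in NKT2 (log2 fold change 0.31, SE 0.09, adjusted p 0.0400) and in NKT17 (0.44, SE 0.09, adjusted p 0.00326), both under the fold minimum, whereas in NKT1 the genotypes overlapped (-0.07, SE 0.09). Another annotated gene, Gm20489, overlaps Il2rg on the same strand and has no row in the count table.

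Il2rb (chromosome 15, 78310983 to 78325496, minus strand), the chain that IL-2 and IL-15 share, was mostly a transcript of NKT1 cells. Its levels were 2513, 2639 and 2876 CPM in WT NKT1 and 2272, 1954 and 2144 CPM in SKG NKT1. No other library exceeded 321 CPM. Against NKT2, NKT1 cells held 11.5-fold more in WT (log2 fold change 3.53, SE 0.12, adjusted p 1.67e-15) and 14.3-fold more in SKG. Against NKT17 the folds were 8.99 in WT and 11.6 in SKG. Of the remaining groups WT NKT17 held 294, 278 and 321 CPM and WT NKT2 240, 208 and 248 CPM. SKG NKT17 was at 205, 155 and 187 CPM and SKG NKT2 at 143, 140 and 163 CPM, so that each SKG group lay wholly below its WT counterpart. The fall in SKG was called in NKT2 (log2 fold change -0.64, SE 0.11, adjusted p 0.000439) and NKT17 (-0.71, SE 0.11, adjusted p 0.000139). In NKT1 it was -0.33 (SE 0.11, adjusted p 0.115) and was not called. The 3 differences between these SKG effects ranged from -0.37 to -0.07 and none was called by edgeR or DESeq2, with 1 at an unadjusted p under 0.05 (NKT17 against NKT1).

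Il2ra (chromosome 2, 11564419 to 11614818, plus strand) encodes the alpha chain, CD25, which raises the affinity of the receptor for IL-2. NKT17 cells carried the most, with 93.3, 93.7 and 100.5 CPM in WT and 157, 152 and 138 CPM in SKG. WT NKT1 libraries held 25.7, 31.9 and 25.3 CPM, and those of SKG NKT1 13.2, 7.71 and 13.7 CPM. WT NKT2 cells were nearly devoid of the transcript, at 0.818, 0.175 and 2.42 CPM, which are 4, 1 and 15 counts. The corresponding SKG NKT2 libraries held 21.6, 17.0 and 38.2 CPM, or 98, 87 and 238 counts. SKG NKT2 thus overlapped WT NKT1 and lay above SKG NKT1, and WT NKT2 stood alone at the bottom of the order. The SKG effect was a rise in NKT2 (log2 fold change 4.42, SE 0.43, adjusted p 1.10e-06) and a fall in NKT1 (-1.25, SE 0.32, adjusted p 0.0367). The size of the rise depended on WT NKT2 replicate 3, the library with 15 counts, without which it was 5.71. The fall in NKT1 was not called without WT NKT1 replicate 2 (adjusted p 0.125), without SKG NKT1 replicate 1 (0.101) or without SKG NKT1 replicate 2 (0.179), and its adjusted p ranged from 0.000511 to 0.179 over all alternatives. For NKT17 the rise of 0.64 (SE 0.28, adjusted p 0.191) was not called although the libraries did not overlap. It was called when only these 6 libraries were fitted (adjusted p 0.00437), by DESeq2 (adjusted p 0.0928) and without WT NKT2 replicate 3 (adjusted p 0.0985).

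The order of the subsets in Il2ra changed with genotype. In WT, NKT17 exceeded NKT1 (log2 fold change of NKT1 -1.80, SE 0.29, adjusted p 8.99e-05) and NKT1 exceeded NKT2 (4.52, SE 0.43, adjusted p 1.10e-07). In SKG, NKT17 again exceeded NKT1 (-3.68, SE 0.32, adjusted p 4.07e-08), but NKT1 was lower than NKT2 (-1.15, SE 0.32, adjusted p 0.0129). This last call was lost without SKG NKT2 replicate 3, the highest of its group (-0.73, adjusted p 0.125). Per kilobase, Il2ra amounted to 0.256% of Il2rb in WT NKT2, 9.24% in SKG NKT2, 17.6% in WT NKT17 and 45.3% in SKG NKT17.

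Il15ra (chromosome 2, 11626914 to 11655613, plus strand), the alpha chain for IL-15, begins 12.1 kb past the end of Il2ra on the same strand. It was low in all 18 libraries, from 7.34 to 38.4 CPM, and every pair of neighbouring groups in the order of means overlapped. The highest value came from WT NKT1, whose libraries held 8.81, 13.7 and 38.4 CPM, and the last of these stood apart from the others. SKG NKT1 held 19.1, 23.1 and 23.0 CPM. NKT2 libraries were at 13.1, 7.34 and 9.54 CPM in WT and 16.1, 16.4 and 14.0 CPM in SKG. NKT17 libraries were at 19.1, 15.7 and 10.7 CPM in WT and 13.2, 10.6 and 7.51 CPM in SKG. No comparison of SKG with WT was called by edgeR or DESeq2, and 0 were at an unadjusted p under 0.05, with log2 fold changes of 0.11 in NKT1 (SE 0.38, 95% confidence interval -0.69 to 0.91), 0.64 in NKT2 (SE 0.40, -0.20 to 1.47) and -0.52 in NKT17 (SE 0.40, -1.35 to 0.30). NKT1 was called higher than NKT2 in WT (1.02, SE 0.40, adjusted p 0.0545), a difference of 0.15 (adjusted p 0.772) without WT NKT1 replicate 3. In SKG, NKT1 was called higher than NKT17 (1.05, SE 0.40, adjusted p 0.0536), and this call was lost on leaving out SKG NKT1 replicate 2 or 3 or SKG NKT17 replicate 2 or 3, with adjusted p-values up to 0.186.

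Il7r (chromosome 15, 9435916 to 9459631, minus strand) encodes the IL-7 receptor alpha chain, CD127. NKT17 libraries were the highest, at 1595, 1823 and 1779 CPM in WT and 1796, 1906 and 1913 CPM in SKG. NKT1 libraries held 1052, 1105 and 1096 CPM in WT and 1085, 1038 and 897 CPM in SKG. WT NKT2 held 475, 569 and 472 CPM, below every other library, and SKG NKT2 held 1135, 1037 and 941 CPM, overlapping both NKT1 groups. Accordingly SKG exceeded WT 2.05-fold in NKT2 (log2 fold change 1.04, SE 0.10, adjusted p 2.57e-07). In the other subsets the genotypes overlapped, with log2 fold changes of -0.11 in NKT1 (95% confidence interval -0.31 to 0.10) and 0.11 in NKT17 (-0.10 to 0.32). NKT1 and NKT2 differed in WT (1.10, SE 0.10, adjusted p 1.25e-08) but in SKG the difference was -0.04 (SE 0.10, adjusted p 0.829). NKT17 exceeded NKT2 in both genotypes, 3.43-fold in WT and 1.80-fold in SKG.

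Il4ra (chromosome 7, 132695785 to 132722986, plus strand), the chain that binds IL-4 and, with another partner, serves IL-13, followed another order. NKT1 cells were the highest, at 97.2, 126 and 155 CPM in WT and 122, 128 and 173 CPM in SKG, and these groups overlapped. WT NKT17 held 23.6, 21.6 and 28.7 CPM, and WT NKT2 only 5.11, 7.86 and 9.54 CPM (25, 45 and 59 counts). SKG NKT17 held 62.0, 66.8 and 52.4 CPM and SKG NKT2 54.8, 87.9 and 67.1 CPM, so both SKG groups lay wholly above WT and overlapped each other. The rise was 9.20-fold in NKT2 (log2 fold change 3.20, SE 0.24, adjusted p 9.00e-09) and 2.45-fold in NKT17 (1.29, SE 0.21, adjusted p 0.000314). In NKT1 cells the log2 fold change was 0.16 (SE 0.20, 95% confidence interval -0.25 to 0.58). The gap between NKT1 and NKT2 was 4.05 in WT (SE 0.24, adjusted p 1.95e-11) and 1.01 in SKG (SE 0.20, adjusted p 0.000812). NKT17 exceeded NKT2 in WT (1.70, SE 0.24, adjusted p 1.25e-05), and in SKG the difference was -0.21 (95% confidence interval -0.64 to 0.22).

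Il21r (chromosome 7, 132746943 to 132777084, plus strand), the IL-21 receptor gene, begins 23.96 kb past the end of Il4ra on the same strand. Its order was NKT1, NKT2, NKT17 in both genotypes. WT libraries held 191, 170 and 202 CPM in NKT1, 46.2, 47.2 and 48.7 CPM in NKT2 and 14.8, 11.0 and 12.6 CPM in NKT17. SKG libraries held 275, 289 and 252 CPM in NKT1, 129, 116 and 125 CPM in NKT2 and 12.6, 14.8 and 14.5 CPM in NKT17. Genotypes overlapped in NKT17 and were apart in the other subsets. SKG exceeded WT 2.60-fold in NKT2 (log2 fold change 1.38, SE 0.12, adjusted p 4.90e-08). In NKT1 the rise of 0.53 (SE 0.11, adjusted p 0.00954) stayed under the fold minimum, and it was called without WT NKT1 replicate 3 (0.60) or without SKG NKT1 replicate 3 (0.59). In NKT17 the log2 fold change was 0.12 (95% confidence interval -0.16 to 0.41). NKT1 exceeded NKT17 14.7-fold in WT and 19.5-fold in SKG, the largest of the family in that comparison in each genotype.

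Il9r (chromosome 11, 32087541 to 32100279, minus strand), which encodes the chain that binds IL-9, was at or near the counting floor in every library. The 6 NKT1 libraries had 0 counts, which allows up to 0.362 to 0.625 CPM (3 counts, counting error only). WT NKT2 libraries had 3, 4 and 3 counts, SKG NKT2 libraries 1, 3 and 0, WT NKT17 libraries 0, 0 and 3, and SKG NKT17 libraries 0, 1 and 0. No fold change is given for it.

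**Figure D2:**
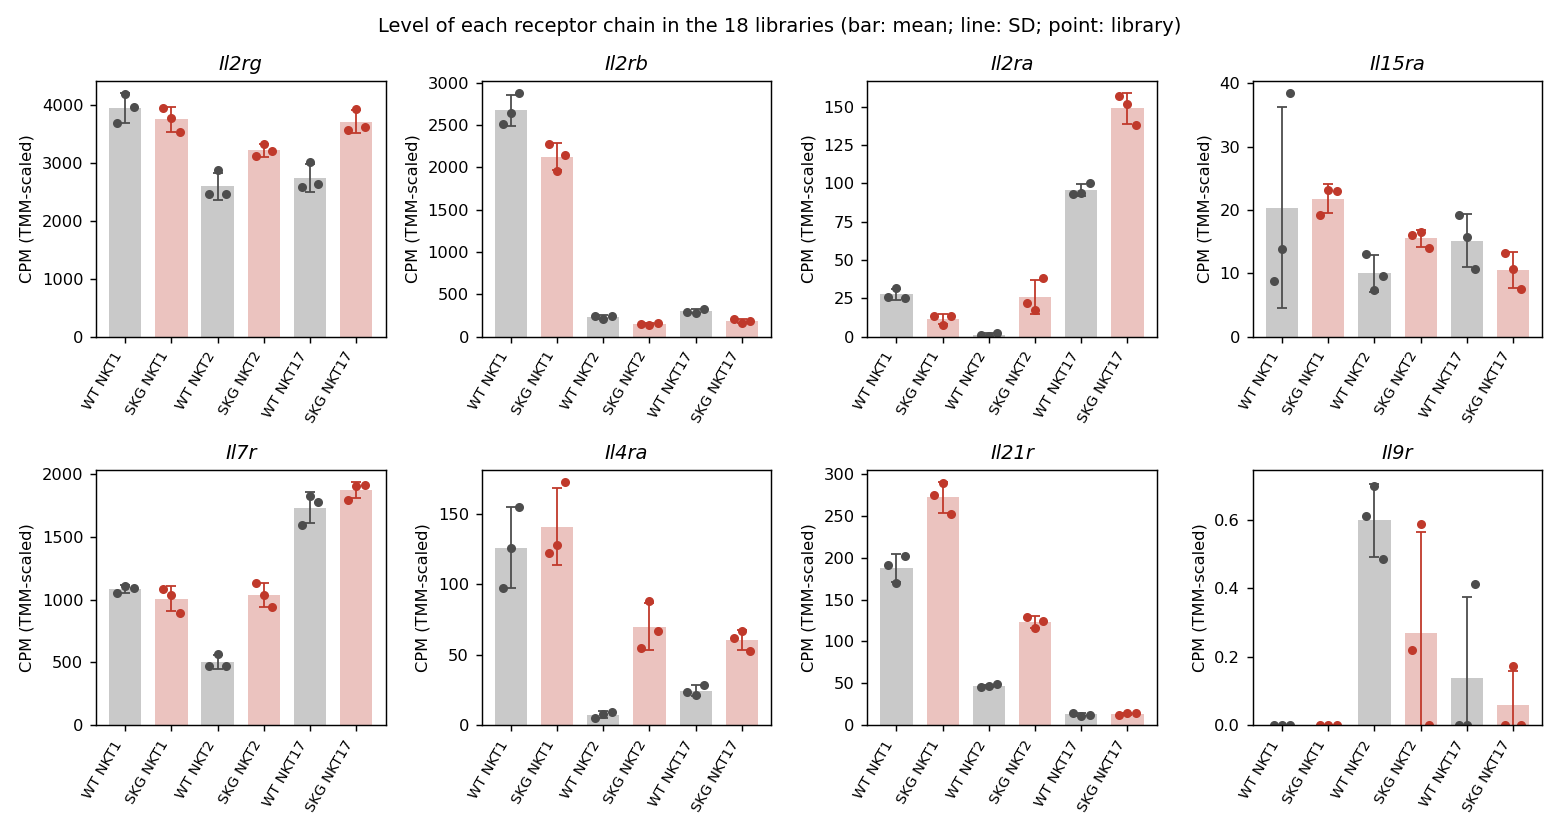
Level of each of the 8 receptor chains in CPM (linear axes starting at 0), with bars for the mean, lines for the SD and a point for each of the 3 libraries of a group, WT in grey and SKG in red. The SKG NKT2 points lie above the WT NKT2 points for Il2rg, Il2ra, Il15ra, Il7r, Il4ra and Il21r, and below them for Il2rb.

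The comparison of SKG with WT addresses the effect of weakened Zap70 within a sorted subset. It touched the family most in NKT2 cells, where 5 members were called against 7.95% of all tested genes. Il2ra, Il4ra, Il21r and Il7r were higher in SKG and Il2rb was lower. Libraries of the 2 genotypes did not overlap for 7 members, which also held for 30.1% of all genes. The median log2 fold change of the tested members was 1.04, and that of all tested genes -0.0036. NKT17 cells had 2 members called, Il4ra higher and Il2rb lower, against 8.37% of all genes, and 4 members without overlap, against 26.9%. NKT1 cells had 1 member called, Il2ra, lower in SKG, against 3.27% of all genes, and 3 members without overlap, against 16.3%. Medians of the tested members were 0.12 in NKT17 and -0.07 in NKT1.

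**Figure D3:**
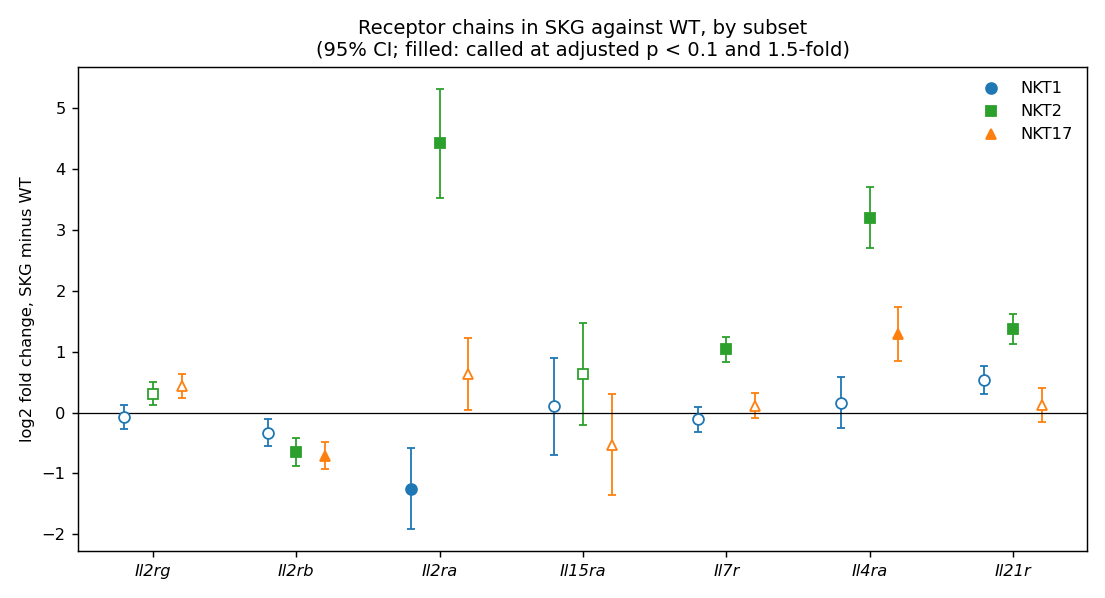
Log2 fold change of 7 receptor chains in SKG against WT for NKT1 (circles), NKT2 (squares) and NKT17 (triangles), with 95% confidence intervals and filled symbols for called changes. The squares of Il2ra at 4.42 and Il4ra at 3.20 lie highest, and the Il2rb symbols all lie below 0.

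Whether the SKG effect differed between subsets was tested directly. The effect was larger in NKT2 than in NKT1 for 4 members, against 3.87% of all genes called and 2.09% called in this direction, namely Il2ra, Il4ra, Il7r and Il21r, by 5.67, 3.04, 1.14 and 0.85 on the log2 scale. It was larger in NKT17 than in NKT1 for 2, against 4.17% and 2.05% in this direction, namely Il2ra (1.89) and Il4ra (1.13). It was smaller in NKT17 than in NKT2 for 4, against 2.19% and 1.05% in this direction, again Il2ra, Il4ra, Il21r and Il7r. These 3 tests share libraries, as each group enters 2 of them. Il2rg passed the adjusted p for NKT17 against NKT1 (0.51, SE 0.13, adjusted p 0.0356) with a difference smaller than 1.5-fold.

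Comparisons between subsets of one genotype ask which chains set the subsets apart. WT NKT1 cells exceeded WT NKT2 cells in 7 members, against 27.5% of all genes called in either direction and 13.7% called higher. WT NKT1 exceeded WT NKT17 in Il2rb, Il4ra and Il21r and was lower in Il2ra and Il7r, 5 members against 24.7%. WT NKT17 exceeded WT NKT2 in Il2ra, Il7r and Il4ra and was lower in Il21r, 4 members against 20% of all genes. In SKG, NKT1 and NKT2 differed in 4 members, against 18.7%, with Il2rb, Il4ra and Il21r higher and Il2ra lower in NKT1. NKT1 and NKT17 differed in 6, against 22.8%, with Il2rb, Il15ra, Il4ra and Il21r higher and Il2ra and Il7r lower in NKT1. NKT17 exceeded NKT2 in Il2ra and Il7r and was lower in Il21r, 3 members against 18.8%.

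**Figure D4:**
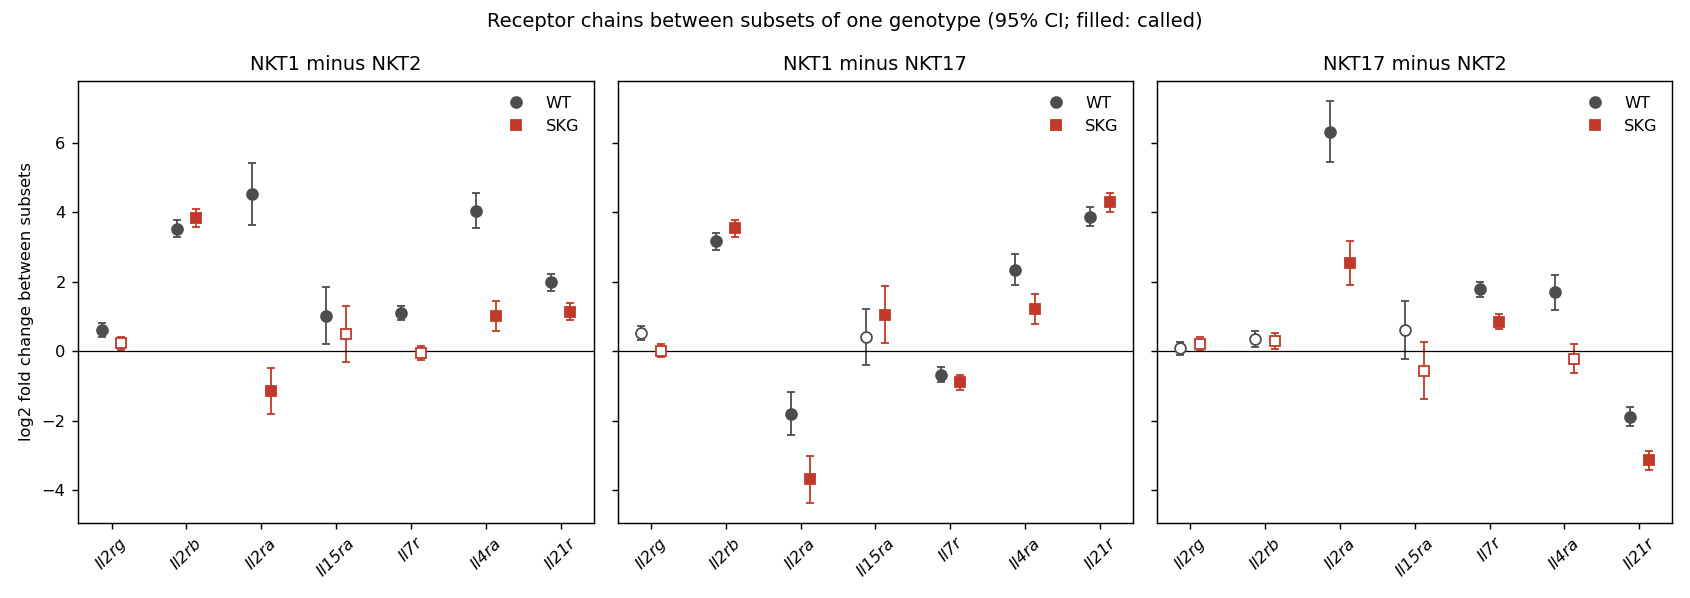
Log2 fold changes of 7 receptor chains between NKT1 and NKT2, NKT1 and NKT17, and NKT17 and NKT2, in WT (grey circles) and SKG (red squares), with 95% confidence intervals and filled symbols for called differences. In the NKT1 and NKT2 panel Il2ra lies at 4.52 in WT and -1.15 in SKG, and Il4ra at 4.05 and 1.01, while Il2rb lies above 3 in both genotypes.

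Markers of other cells were read beside these changes. In SKG NKT2 libraries the NKT1 markers summed to 69.4 to 135 CPM, overlapping the 93.3 to 184 CPM of WT NKT2. The NKT17 markers summed to 8.15 to 14.5 CPM, overlapping 6.29 to 14.3 CPM in WT NKT2. Sdc1, which is used to sort NKT17 cells, was at 0.384 CPM in SKG NKT2 and 415 CPM in SKG NKT17. Foxp3, which defines regulatory T cells, a population rich in CD25, had 0 counts in WT and SKG NKT2 libraries. The regulatory T cell list also held Ikzf2, Ctla4, Tnfrsf4 and Tnfrsf18, which were detected in both groups. Its 5 genes summed to 150 to 167 CPM in SKG NKT2 and 194 to 204 CPM in WT NKT2. Tnfrsf18 was the highest of them (128 CPM in SKG and 109 CPM in WT), and Ikzf2 was called lower in SKG (12.5 against 55.6 CPM). Of the NKT2 markers, Gata3, Icos and Pdcd1 were called lower in SKG NKT2, where the 6 markers summed to 1349 to 1703 CPM against 2597 to 2742 CPM in WT. The part of this shift in the receptor changes was not tested. The NKT17 libraries also shifted in their own markers, whose 6 genes summed to 2824 to 3157 CPM in SKG and 4177 to 4261 CPM in WT. Of these, Il23r, Il1r1 and Blk were called lower in SKG NKT17 and Ccr6 higher (592 ± 26.4 against 12.0 ± 7.57 CPM). The NKT2 markers summed to 1381 to 1499 CPM in SKG NKT17 against 2094 to 2503 CPM in WT, with Il4 and Pdcd1 called lower, and of the NKT1 markers Klrd1 was called higher (2.28 ± 0.972 against 0.195 ± 0.207 CPM). SKG NKT17 libraries held more transcripts of double-positive thymocyte markers (14.3 to 47.5 CPM against 5.27 to 12.5 CPM summed, with Rag1, Rag2 and Dntt at 0) and of B cell markers (24.8 to 40.7 against 7.82 to 11.1 CPM, with Pax5 at 0). The part of these shifts in the rise of Il4ra and the fall of Il2rb in NKT17 was not tested. The NKT1 markers summed to 1986 to 2196 CPM in SKG NKT1, overlapping 2124 to 2474 CPM in WT NKT1. Of the NKT2 markers, Pdcd1 was called lower in SKG NKT1 (17.1 ± 8.61 against 127 ± 11.1 CPM) and Il4 higher. Ikzf2 was called lower there (9.60 ± 5.95 against 32.7 ± 4.66 CPM). The part of these NKT1 shifts in the fall of Il2ra was not tested. In sorted cells measured in bulk, a changed share of cells that carry a transcript and a changed amount per cell cannot be told apart.

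The 250 bases before the starts of Il4ra and Il21r, which rose together in SKG NKT2 and lie in tandem, and of Il7r and Il2ra, which also rose there, are shown so that the promoters can be compared. Of the 8 members, 7 had a promoter in the RefSeq table used (8 entries, build GRCm38.p6), and Il2rb had none there. Each stretch matched NCBIM37 at 1 place on its chromosome, at chr7:132695535-132695784 and chr7:132746693-132746942 on the plus strand, chr15:9459632-9459881 on the minus strand and chr2:11564169-11564418 on the plus strand. Capitals mark matches of 8 letter patterns searched on both strands, namely TTCNNNGAA (STAT), TGANTCA (AP-1), CCGGAAG (ETS), GGTGTGA (T-box), GCGNGGGCG (EGR), GGAAAA (NFAT), TGTGGTT (RUNX) and ATGNAAAT (octamer type), the last chosen after the sequences had been seen.
Il4ra: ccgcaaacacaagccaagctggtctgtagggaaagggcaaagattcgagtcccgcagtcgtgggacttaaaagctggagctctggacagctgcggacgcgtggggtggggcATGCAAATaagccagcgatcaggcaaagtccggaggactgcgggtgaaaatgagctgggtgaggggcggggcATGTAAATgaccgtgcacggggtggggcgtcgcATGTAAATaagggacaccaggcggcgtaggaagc
Il21r: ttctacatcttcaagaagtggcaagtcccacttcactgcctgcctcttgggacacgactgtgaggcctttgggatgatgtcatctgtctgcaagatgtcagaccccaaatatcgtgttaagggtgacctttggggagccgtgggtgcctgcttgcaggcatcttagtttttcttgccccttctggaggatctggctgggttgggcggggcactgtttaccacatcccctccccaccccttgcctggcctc
Il7r: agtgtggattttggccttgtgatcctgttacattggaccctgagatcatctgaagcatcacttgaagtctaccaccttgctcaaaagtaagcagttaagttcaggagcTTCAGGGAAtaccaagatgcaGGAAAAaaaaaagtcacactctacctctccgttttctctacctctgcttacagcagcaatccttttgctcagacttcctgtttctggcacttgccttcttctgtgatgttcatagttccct
Il2ra: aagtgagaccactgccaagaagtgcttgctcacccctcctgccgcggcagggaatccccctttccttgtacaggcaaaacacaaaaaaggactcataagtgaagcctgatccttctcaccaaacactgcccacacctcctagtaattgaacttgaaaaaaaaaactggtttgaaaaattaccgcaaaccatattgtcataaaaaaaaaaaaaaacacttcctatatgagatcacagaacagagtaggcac

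Il4ra held 3 copies of the octamer-type letters, starting 139, 67 and 34 bases before the gene start, a pattern with at least 1 copy in 5.03% of 32851 promoters of this length. Il7r held 1 STAT-type match with a 3-base spacer, starting 142 bases before the start (7.02% of promoters hold one), and 1 NFAT-type match, 121 bases before it (20.4%). None of the letters searched occur in the stretches of Il21r and Il2ra. A match is a likeness of letters, and binding was not measured in these libraries.

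As Il4ra and Il21r are neighbours, the protein-coding genes within 100 kb of either gene were also read, a window chosen after the receptor values had been seen. Of 4 such genes, 1 was called in SKG NKT2, against 7.95% of all tested genes. It was Nsmce1, which encodes a subunit of a complex of chromosome maintenance, and it was also the 1 called in SKG NKT17, against 8.37%. SKG NKT2 held 166 CPM of it and WT NKT2 103 CPM (a log2 difference of 0.68, adjusted p 0.00407). The values were 132 and 82.5 CPM in NKT17 (0.68, adjusted p 0.00431) and 135 and 134 CPM in NKT1. Jmjd5, Gtf3c1 and D430042O09Rik were not called in any subset. Around Il2ra and Il15ra, 3 of 5 genes were tested, Rbm17, Fbxo18 and Ankrd16. None was called in SKG against WT in any subset by edgeR or DESeq2, with 1 of them, Fbxo18 in NKT17, at an unadjusted p under 0.05. The shares of all tested genes called by edgeR were 3.27%, 7.95% and 8.37% in NKT1, NKT2 and NKT17.

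**Figure D5:**
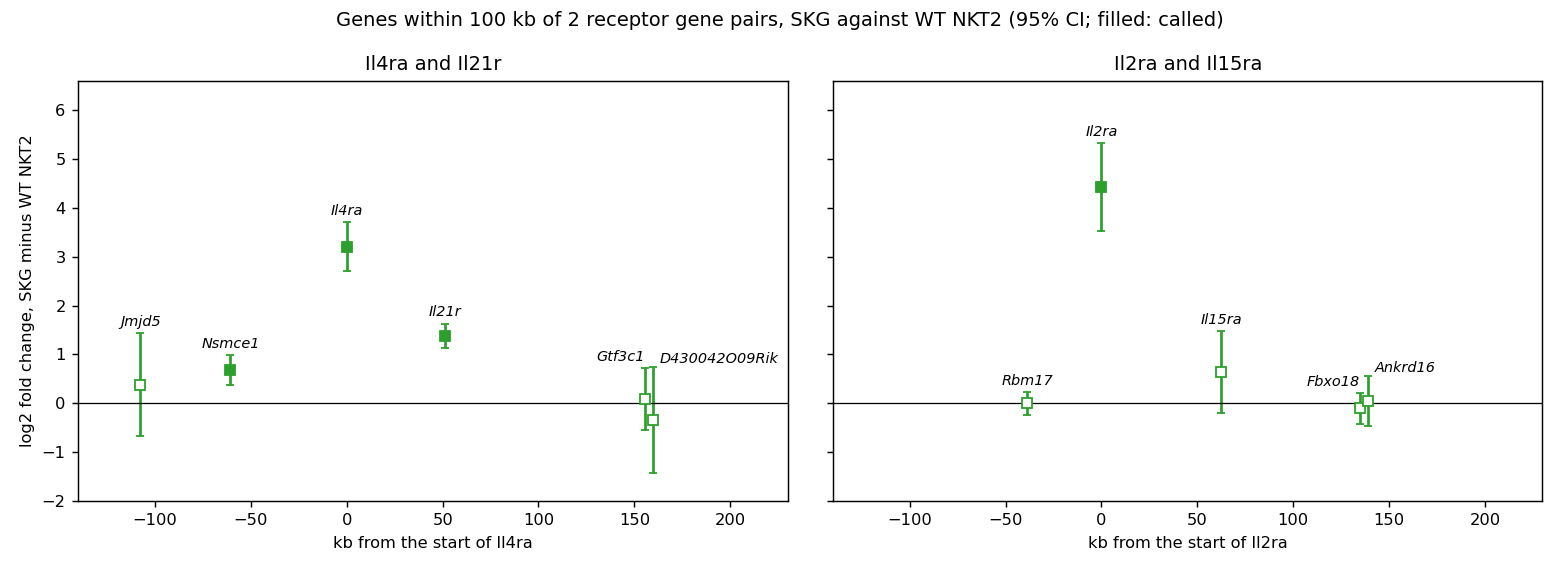
Log2 fold change in SKG against WT NKT2 for the tested protein-coding genes within 100 kb of Il4ra and Il21r (left) and of Il2ra and Il15ra (right), against the distance of each gene's start in kb, with 95% confidence intervals and filled symbols for called changes. Genes whose starts nearly coincide are drawn side by side. Il4ra at 3.20, Il21r at 1.38 and Nsmce1 at 0.68 are called on the left, and Il2ra at 4.42 on the right.

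Cytokines of the family were transcribed unevenly by the same cells. Of 8 ligand genes, Il2, Il4, Il7, Il9, Il13, Il15, Il21 and Tslp, 4 had enough counts to be tested, and Il7 and Il9 had 0 counts in every library. The calls between genotypes given here stand against 3.27%, 7.95% and 8.37% of all tested genes in NKT1, NKT2 and NKT17. Il4 was highest in NKT2, at 146 ± 32.7 CPM in WT and 96.2 ± 21.9 CPM in SKG, the subset in which WT cells had the least Il4ra. In SKG NKT2, Il13 (6.86 ± 2.07 against 19.3 ± 4.62 CPM) and Il21 (0.268 ± 0.464 against 4.67 ± 1.68 CPM, log2 fold change -3.86, SE 1.10, adjusted p 0.0405) were lower. SKG NKT17 also had 2 ligands lower, Il4 (12.3 ± 2.00 against 25.7 ± 4.94 CPM) and Il13 (0 against 0.687 ± 0.440 CPM, a few counts at most). In SKG NKT1, Il4 was higher (47.5 ± 8.47 against 15.3 ± 9.04 CPM, log2 fold change 1.65, SE 0.32, adjusted p 0.00614). Il13 was also called higher there, but on few counts (0.810 ± 0.242 against 0.0590 ± 0.102 CPM, adjusted p 0.0688). No SKG NKT1 library held more than 6 counts of Il13, and no WT NKT1 library more than 1.

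Genes that these receptors are known to induce changed in part. The list held Cish, Socs1, Socs2, Socs3, Pim1, Pim2, Bcl2, Bcl2l1, Mcl1 and Myc, and all 10 were tested. Cish, a feedback inhibitor induced through STAT5, was higher in SKG in each subset, at 74.3 ± 9.53 against 14.3 ± 3.93 CPM for NKT2 cells (a rise of 2.38 in log2, SE 0.23, adjusted p 3.09e-07), 99.2 ± 21.7 against 28.6 ± 8.54 CPM in NKT17 (1.80, SE 0.22) and 152 ± 9.19 against 89.7 ± 13.5 CPM in NKT1 (0.76, SE 0.21). NKT2 had 3 of the 10 called, each higher, Cish with the kinase gene Pim1 and the survival gene Bcl2, against 7.95% of all tested genes called and 3.9% called higher, and the list's median was 0.78. NKT17 had 3 called, each higher, Cish, Pim1 and Pim2, against 8.37% and 3.83%, with a median of 0.53. NKT1 had 3 higher, Cish, Socs2 and Bcl2l1, and 2 lower, Socs3 and Pim2 (169 ± 19.9 against 452 ± 34.9 CPM, log2 fold change -1.42, SE 0.13, adjusted p 7.81e-07), against 3.27% of all genes called, 1.46% higher and 1.82% lower, with a median of 0.66. Over all tested genes the medians were -0.0036 in NKT2, 0.0045 in NKT17 and -0.0067 in NKT1.

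The list of 8 signalling genes held Jak1, Jak3, Stat3, Stat5a, Stat5b, Stat6 and Irs2 among them. None of the 8 was called in SKG NKT2 by edgeR, against 7.95% of all tested genes, nor by DESeq2, with 1 (Stat6) at an unadjusted p under 0.05. SKG NKT1 and SKG NKT17 each had 1 of the 8 called lower by both tools, against 3.27% and 8.37% of all tested genes called by edgeR. Between WT subsets Jak1 was higher in NKT1 than in NKT2 (1340 ± 105 against 724 ± 20.7 CPM, a log2 difference of 0.89, SE 0.11, adjusted p 6.92e-07). Stat5b was lower in NKT1 than in NKT17 (57.0 ± 8.35 against 119 ± 10.6 CPM, -1.06, SE 0.13, adjusted p 1.10e-06), and Jak3 higher in NKT17 than in NKT2 (346 ± 43.5 against 172 ± 20.2 CPM, 1.01, SE 0.13). Related receptor chains were sparse, as 1 of Il13ra1, Il13ra2 and Crlf2 was tested, Crlf2, and edgeR and DESeq2 called it in no comparison (unadjusted p under 0.05 in SKG against WT in 2 subsets).

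Transcription factors linked to these receptor genes were read last, as Tbx21, Eomes, Foxo1, Ets1, Gabpa, Runx1, Runx3, Gfi1, Klf2 and Foxp3, of which 8 were tested. Tbx21, which encodes T-bet and is known to act on Il2rb, was at 548 ± 24.6 CPM in WT NKT1, 28.2 ± 14.3 CPM in WT NKT2 and 0.825 ± 0.553 CPM in WT NKT17. None of the 8 was called in SKG NKT2 by edgeR, against 7.95% of all tested genes, with 2 at an unadjusted p under 0.05 (Gfi1 and Klf2) and 1 called by DESeq2. SKG NKT1 had 1 called, against 3.27% of all tested genes, Runx1, which was higher (18.1 ± 1.36 against 11.4 ± 0.495 CPM, log2 fold change 0.67, SE 0.19, adjusted p 0.0725). SKG NKT17 had 2 called, against 8.37% of all tested genes. Klf2 was higher (93.2 ± 8.09 against 15.9 ± 8.15 CPM, 2.54, SE 0.84, adjusted p 0.0909) and Ets1 lower (682 ± 18.9 against 1052 ± 174 CPM, -0.62, SE 0.18, adjusted p 0.0344). Klf2 varied widely between replicates elsewhere, from 23.2 to 417 CPM in WT NKT1.

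The genes whose log2 CPM ran most like each chain over the 18 libraries were found among 8388 genes with a mean of at least 10 CPM. These likenesses are descriptions over 6 groups that share their libraries. For Il2rb they were Chsy1 (Pearson r 0.990) and Slc2a3 (0.980), and for Il21r Ms4a4b (0.985) and Ikzf1 (0.966). For Il2ra the closest gene was another member, Il7r (0.939), followed by Bik (0.926). Il7r itself ran closest to Diap1 (0.959) and Aqp3 (0.956), Il2rg to Tmem9b (0.962) and Leprotl1 (0.939), and Il4ra to Ccdc82 (0.946) and Qpct (0.945). The closest to Il15ra, Trdmt1 (0.775) and Nrbf2 (0.756), were the least alike of these pairs.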

How the data were processed

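RNA-seq counts of 18 libraries, 3 in each of 6 genotype and subset groups given by the labels, were analysed. The authors made poly-A cDNA libraries by a Smart-seq2 type of protocol and Tn5 tagmentation, sequenced them as short single-end reads, removed tRNA, rRNA, adapter, spike-in and low-complexity reads, and aligned the rest with TopHat 1.4.1. The deposited values are whole-number counts per gene symbol from htseq-count in union mode, with no normalization and no molecular identifiers, so PCR copies count as reads. The study's methods name the mm9 genome and the submitters' processing notes list mm10 and hg19 as well. The annotation and strand setting of the counting are not given in the sources used here, so a gene can hold reads of an overlapping one. A further 2 columns match no listed sample and were not used.

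Genes were filtered by filterByExpr, scaled by TMM (factors 0.928 to 1.07) and fitted with edgeR 4.0.16 (R 4.3.3) as a robust quasi-likelihood model of 6 group means (12 residual degrees of freedom). The common BCV was 21.1%. Tests were two-sided. SE was derived from the log2 fold change and its F statistic, and 95% intervals use the t distribution. RPKM divides CPM by the merged exon length in GENCODE M1 (NCBIM37), where 21897 of 23337 symbols (93.83%) were found. Replicate libraries were further apart than sampling noise allows (chi-square per degree of freedom 5.47 to 24.4) and were kept as replicates. The pipeline was tested on simulated data with changes placed in SKG NKT2. There edgeR called 45 of 94 genes changed 2-fold (47.9%) and 90 of 106 changed 4-fold (84.9%), with 8 unchanged genes called. A true change near 2-fold can therefore go uncalled. Figures were drawn with matplotlib 3.10.9.

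Members, lists and markers were chosen with earlier results of these data known. Named are the members, the 2 genes most like each member and, by a rule, 1 called gene per list. The rule took the smallest adjusted p among the genes reported here, in each comparison of SKG with WT. Between WT subsets it was followed for the signalling genes only, so Tbx21 was not named by it. Other names were chosen after their values were seen. Some genes of these lists are not reported here. Alternatives were DESeq2 1.42.0, RLE and upper-quartile scaling, unfiltered genes or those averaging 50 counts or more, a threshold of 0.05 for the adjusted p, no fold minimum, fits restricted to the compared libraries, 2 forms of replicate block drawn from the sample titles, and omission of each library in turn.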

Additional observations from a re-analysis of the deposited data

Results flagged for a closer look

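For 10 results the change with the SKG genotype differed between subsets by a test of the difference itself, in edgeR with Benjamini-Hochberg adjustment over all genes. The SKG effect was larger in NKT2 than in NKT1 by 5.67 for Il2ra (SE 0.54, adjusted p 2.99e-06), by 3.04 for Il4ra (SE 0.31, adjusted p 2.38e-06), by 1.14 for Il7r (SE 0.14, adjusted p 2.27e-05) and by 0.85 for Il21r (SE 0.16, adjusted p 0.00378), all on the log2 scale. For Il2ra the effects had opposite signs, a fall in NKT1 and a rise in NKT2. The effect was larger in NKT17 than in NKT1 by 1.89 for Il2ra (SE 0.42, adjusted p 0.0186) and by 1.13 for Il4ra (SE 0.29, adjusted p 0.0400). Between NKT17 and NKT2 the differences were -3.79 for Il2ra (SE 0.53, adjusted p 0.000550), -1.91 for Il4ra (SE 0.32, adjusted p 0.00158), -1.26 for Il21r (SE 0.18, adjusted p 0.000453) and -0.93 for Il7r (SE 0.14, adjusted p 0.000681), each smaller in NKT17. The Il2ra differences that involve NKT2 rest on 4, 1 and 15 counts in the WT NKT2 libraries, and without replicate 3, which holds the 15, they were 6.95 against NKT1 and -5.07 for NKT17 against NKT2.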

How the results depend on the processing

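Over 84 results for the members, each under 25 or 26 alternatives, 2122 of 2163 values kept the direction and the side of the threshold. Of 47 called differences 41 stayed called under each alternative, 6 lost the call at least once, and none changed sign. The count of members called in SKG against WT NKT1 was 2 with no fold minimum and 0 to 2 with 1 library left out. That of the SKG effect in NKT17 against NKT1 was 1 to 3, with Il4ra lost without SKG NKT1 replicate 1 or 2 or WT NKT17 replicate 1 (adjusted p up to 0.124) and Il15ra added without WT NKT1 replicate 3 (-1.49). Between WT NKT1 and NKT2 the count was 5 to 8, since Il9r was called when no filter was applied, and the calls of Il2rg and Il15ra were lost in several settings. Il2rg fell under the fold minimum with upper-quartile scaling, with a mean of at least 50 counts, and without WT NKT1 replicate 2 or WT NKT2 replicate 1 or 3. The call of Il15ra was lost when only the libraries compared were fitted (adjusted p 0.201), without WT NKT1 replicate 3 and without WT NKT2 replicate 2 or 3. Upper-quartile scaling moved the median of all genes in that comparison to -0.10, so there changes are relative to this shift, and it turned Il2rg between SKG NKT1 and NKT17 from 0.02 to -0.015. Otherwise signs changed in results that were not called, on leaving out 1 library. These values ranged from -0.26 to 0.97 for Il15ra and -0.0054 to 0.35 for Il4ra in SKG against WT NKT1, -0.43 to 0.79 for Il15ra between WT NKT1 and NKT17, and -0.10 to 0.031 for Il7r between SKG NKT1 and NKT2. They ranged from -0.0079 to 0.061 for Il2rg between SKG NKT1 and NKT17, -0.33 to 0.89 for the SKG effect on Il15ra in NKT2 against NKT1, and -0.16 to 0.038 for that on Il2rb in NKT17 against NKT2. The cause was not tested.

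A token in the sample titles recurs across groups, and its meaning is not given in the sources used here. Deviations of libraries with the same token correlated at -0.061 to 0.351 (median 0.170) over 18 pairs of subsets within a genotype, with 12 over 0.1. With different tokens they correlated at -0.369 to 0.224 (median -0.097) over 36 such pairs, with 3 over 0.1. Across genotypes the same token gave -0.151 to 0.090 over 6 pairs, with 0 over 0.1. Subsets of a genotype that share a token were thus more alike, which the main fit left out, so comparisons between subsets were also fitted with a block. With the token as a replicate block, the members called were 1, 5 and 2 in SKG against WT in NKT1, NKT2 and NKT17, as without it. With a replicate block of the token within genotype, 6 members were called between WT NKT1 and NKT2 in place of 7, as Il15ra was lost (adjusted p 0.106), and no other call of a member changed with either block. Depth limits Il9r throughout and Il2ra in WT NKT2, where 1 to 15 counts set the size of each fold.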
